A study of Sus scrofa with 41 samples.

Results

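GPD1, GPD2, MDH1, MDH2, GOT1 and GOT2 encode the enzymes of the glycerol phosphate shuttle and the malate-aspartate shuttle. These 6 genes were taken by their pig Ensembl symbol from the 25880 genes counted in psoas major muscle, and all 6 of 6 were among the 11146 genes that passed the filter on low counts in the joint model. GPD1 was chosen by its measured relation with feed conversion ratio in these same pigs, so its values against that trait are given as a description without a test. The other 5 were added as its partners in the pathway.

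Psoas major, a muscle of the lower back, was sampled right after slaughter from 41 young performance-tested boars, 13 purebred Danbred Duroc and 28 purebred Danbred Landrace, with no treatment in either breed. The feed conversion ratio (FCR) is feed eaten per weight gained, so a low value marks an efficient animal. It ran from 1.83 to 2.18 (median 1.94) in Duroc and from 1.92 to 2.25 (median 2.1) in Landrace. Duroc pigs were 131 to 156 days old and Landrace pigs 147 to 166 days, and RNA integrity (RIN) was 7 to 8.8 in Duroc and 6.5 to 8.3 in Landrace, so breed, FCR, age and RIN were related to each other. Every pig is 1 animal and 1 library, and the pigs fell into 5 batches, which the study's methods tie to the day of slaughter.

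NADH made by glycolysis in the cytosol cannot cross the inner mitochondrial membrane, and the shuttles carry its electrons across instead. In the glycerol phosphate shuttle, GPD1 in the cytosol uses NADH to reduce dihydroxyacetone phosphate, and GPD2 on the inner membrane reoxidises the glycerol 3-phosphate and passes the electrons to ubiquinone. In the malate-aspartate shuttle, MDH1 and GOT1 work in the cytosol and MDH2 and GOT2 in the matrix, linked by carriers of the SLC25 family. Fast glycolytic muscle is known for high glycerol 3-phosphate dehydrogenase activity, while the malate-aspartate shuttle is prominent in oxidative tissue such as heart.

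The files held 22188911 to 25954816 read pairs assigned to genes in each pig, with a median of 25243577. GPD1 (ENSSSCG00000000214, chr5:16008179-16021676 on Sscrofa11.1 in RefSeq) had 18708 to 38006 counts per pig. GPD2 (ENSSSCG00000015872, chr15:63592723-63728636) had 594 to 2880 counts, the lowest count of the 6 in any pig. MDH1 (ENSSSCG00000025751, chr3:78247229-78263085) had 1737 counts or more, with a median of 2915, and MDH2 (ENSSSCG00000025486, chr3:10120121-10132705) had 9862 to 25271. GOT1 (ENSSSCG00000010537, chr14:110608422-110635825) had 1272 to 5760 and GOT2 (ENSSSCG00000032985, chr6:20407203-20431849) had 6968 to 16206. For GOT2, 13.4% of the read pairs that a count by strand gave the gene were missing from the unstranded count, because they also overlapped a gene on the opposite strand. The share was 0.000639% for GPD1 and 0% for the other 4. Counts were not divided by transcript length, so levels are compared between pigs and not between genes.

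Muscle markers fitted the label. The skeletal muscle genes ACTA1 and CKM had medians of 106575 and 24588 CPM in Landrace and 99033 and 24665 CPM in Duroc, where CPM is the count per 1000000 counts on genes, scaled by the trimmed mean of M values (TMM). The leukocyte list summed to 7.47 to 58.6 CPM over all pigs. The list of 7 adipocyte markers summed to 152 to 399 CPM in Duroc and 193 to 489 CPM in Landrace. Most of that sum was the lipid droplet gene PLIN4 (medians 277 and 300.3 CPM) and the fatty acid binding protein FABP4 (17.5 and 32.0 CPM). The adipocyte hormone ADIPOQ was above 0 in all 41 pigs (0.351 to 43.5 CPM in Duroc and 0.1003 to 63.8 CPM in Landrace), while LEP was at 0 in 10 of 13 Duroc and 19 of 28 Landrace pigs.

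One pig was at the end of the range in all 6 genes, by a wide margin in some and a narrow one in others. Landrace replicate 8 had the lowest GPD1 (659 CPM, next 695) and GPD2 (33.9 CPM, next 37.6) of the 41 pigs. It had the highest MDH1 (229 CPM, next 194), GOT1 (203 CPM, next 146), GOT2 (571 CPM, next 509) and MDH2 (870.5 CPM, next 866). The same pig had the highest sum of slow fibre markers (18463 CPM, next 14865) and the lowest sum of fast fibre markers (12920 CPM, next 17984). Several results are therefore also given without this pig.

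The first comparison was between the breeds. Landrace muscle had more GPD1 transcript than Duroc muscle and less MDH1 and GOT1, the cytosolic pair of the malate-aspartate shuttle. GPD2 was called higher in Landrace after adjustment, while its measured levels had similar medians in the breeds. Of the 6 genes, 2 were called higher and 2 lower at a false discovery rate (FDR) below 0.1 in the joint edgeR model of FCR, RIN, age, breed and batch. Over all genes 15.6% were called higher and 17.5% lower in Landrace, 33.1% in all.

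GPD1 was 695 CPM in the lowest, 838 in the median and 1530 in the highest Duroc pig, and 659, 1099 and 1719 CPM in Landrace. The means were 930.4 ± 247 CPM (SD, n = 13) and 1159 ± 279 CPM (SD, n = 28). The ranges overlapped, but 27 of 28 Landrace pigs lay above the Duroc median, and the exception was replicate 8. The fitted difference was 0.47 on the log2 scale (SE 0.123, 1.39-fold, edgeR FDR 0.00510). Without batch 5 it was 0.46 and missed the threshold (edgeR FDR 0.119). Over 15 alternative fits it ran from 0.30 to 0.50 and was called in 14. Landrace pigs were higher in every batch that held both breeds, by 0.27, 0.52, 0.29 and 0.34 in batches 2, 3, 4 and 5.

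GPD2 gave a different picture before and after adjustment. Duroc pigs ran from 37.6 to 101 CPM with a median of 68.3, and Landrace pigs from 33.9 to 104 CPM with a median of 70.2, so the medians were close and 17 of 28 Landrace pigs lay above the Duroc median. The joint model gave a difference of 0.62 (SE 0.162, 1.54-fold, edgeR FDR 0.00490). With breed and batch alone in the model, a fit added after the data were seen, it was 0.13 (FDR 0.539), and with only age left out it was 0.39 (FDR 0.0519). Within batches Landrace minus Duroc was 0.44, −0.55, 0.03 and 0.35 in batches 2 to 5. The GPD2 call thus rests on the adjustment for the traits that differ between the breeds.

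MDH1, which makes malate in the cytosol, was 85.8 to 194 CPM (median 146) in Duroc and 68.3 to 229 CPM (median 117) in Landrace, with 25 of 28 Landrace pigs below the Duroc median. The fitted difference was −0.55 (SE 0.164, 0.685-fold, edgeR FDR 0.0131). GOT1, the cytosolic aspartate aminotransferase, ran from 72.2 to 146 CPM (median 115) in Duroc and from 51.8 to 203 CPM (median 85.7) in Landrace, with 26 of 28 Landrace pigs below the Duroc median. Its difference was −0.72 (SE 0.168, 0.608-fold, edgeR FDR 0.00214), the largest of the 6 in size.

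The 2 cytosolic genes followed each other across batches. MDH1 was lower in Landrace by 0.72, 0.22 and 0.35 in batches 2, 4 and 5 and differed by 0.09 in batch 3. GOT1 gave −0.89, −0.50 and −0.43 in batches 2, 4 and 5 and 0.19 in batch 3. Batch 3 holds replicate 8, and without that pig the batch 3 values were −0.04 for MDH1 and 0.04 for GOT1. Without that pig in the model the differences were −0.45 for MDH1 (edgeR FDR 0.0239) and −0.60 for GOT1 (FDR 0.00326). Without batch 2, which holds 15 of the pigs, both differences missed the threshold, at −0.38 for MDH1 (edgeR FDR 0.275) and −0.48 for GOT1 (FDR 0.181).

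The mitochondrial forms MDH2 and GOT2 were not called in the joint model, though each was under another setting. MDH2 was 619 to 866 CPM (median 729) in Duroc and 499.9 to 870.5 CPM (median 652) in Landrace, a fitted difference of −0.16 (95% interval −0.36 to 0.04, edgeR FDR 0.241). GOT2 was 340.2 to 498 CPM (median 420.4) in Duroc and 296 to 571 CPM (median 400.3) in Landrace, a fitted difference of −0.14 (95% interval −0.33 to 0.06, edgeR FDR 0.306). MDH2 was called without batch 5 (−0.38, edgeR FDR 0.0547) and with library size alone (−0.34, FDR 0.0145), and GOT2 with library size alone (−0.32, FDR 0.0197), where the median over all genes was −0.18. Without batch 2, MDH2 was at 0.05 (edgeR FDR 0.826) and GOT2 at −0.03 (FDR 0.905). MDH2 was higher in Landrace by 0.09 and 0.03 in batches 3 and 5 (0.05 in batch 3 without replicate 8) and lower by 0.47 and 0.16 in batches 2 and 4.

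**Figure D1:**
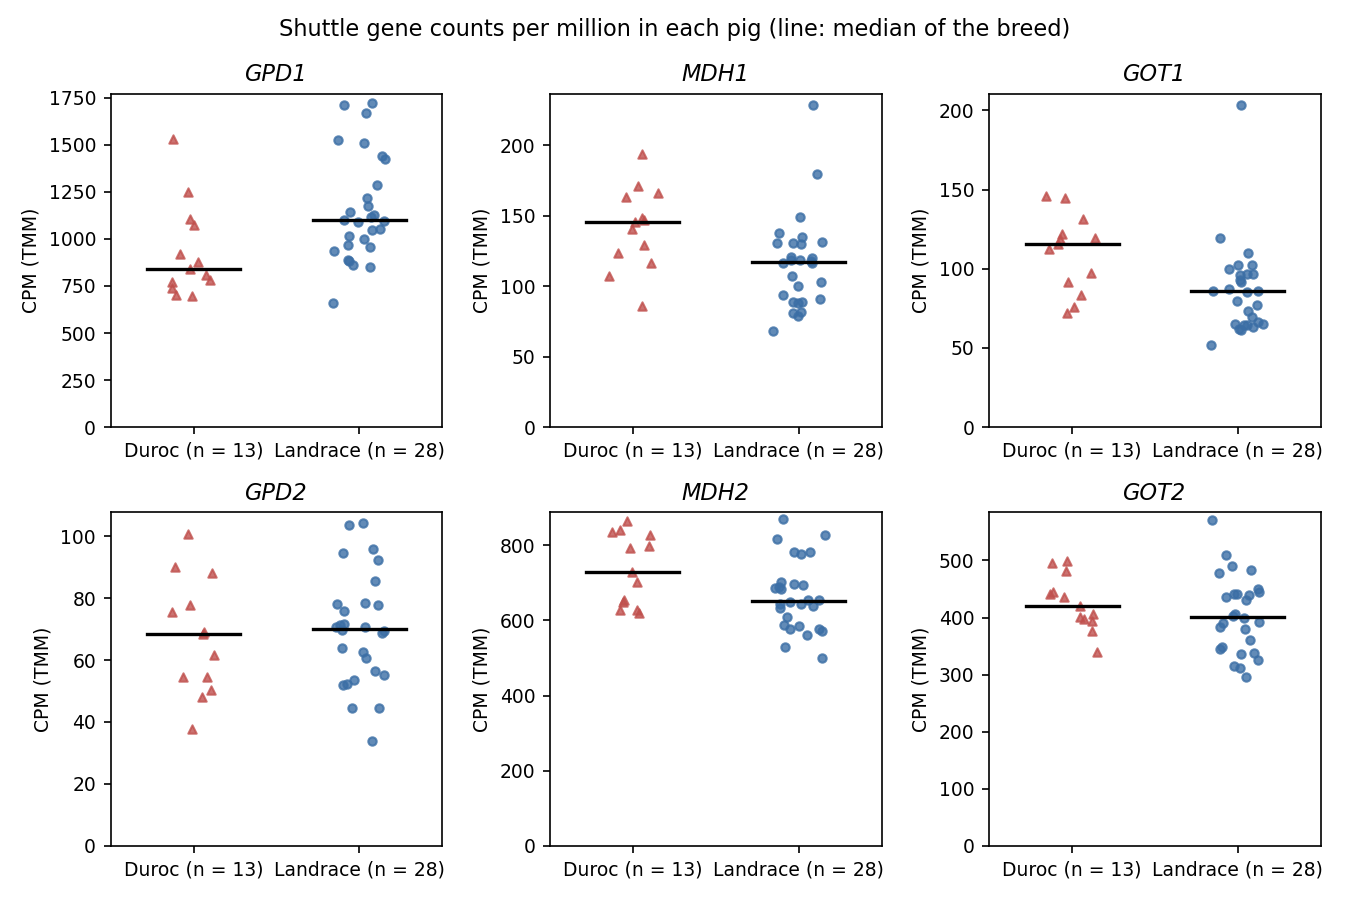
TMM-scaled CPM of the 6 genes (vertical axes, from 0) in each of 13 Duroc (triangles) and 28 Landrace (circles) pigs, with the breed median as a line. GPD1 sits higher in Landrace (median 1099 against 838 CPM), MDH1 and GOT1 sit lower (117 against 146 and 85.7 against 115 CPM), and the breeds overlap in every gene.

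Ratios between genes of 1 pig do not depend on how libraries are scaled. GPD1 counts per MDH1 count had a median of 6.24 in Duroc (4.69 to 9.45) and 10.6 in Landrace (2.89 to 16.2). GPD1 counts per GOT1 count had a median of 8.42 in Duroc (5.34 to 12.9) and 14.2 in Landrace (3.25 to 25.8). The lowest Landrace ratios were those of replicate 8. GPD1 counts per GPD2 count had medians of 13.9 in Duroc and 15.9 in Landrace, with ranges of 7.95 to 40.7 and 8.43 to 33.9 that overlapped almost fully.

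Related mitochondrial carriers and enzymes were counted against the 15.6% of all genes called higher and 17.5% called lower in Landrace. Of 9 listed carriers and paralogs 6 were tested, 0 were higher and 4 were lower in Landrace, with a list median of −0.45 against 0.00 for all genes. The glutamate carrier SLC25A22 had the smallest p, with a difference of −0.93 (SE 0.190, edgeR FDR 0.000529). The aspartate-glutamate carriers that drive the malate-aspartate shuttle, SLC25A12 (−0.40, edgeR FDR 0.0106) and SLC25A13 (−0.78, FDR 0.0449), and the dicarboxylate carrier SLC25A10 (−0.38, FDR 0.0467) were the other 3, named after their values were seen. SLC25A22 and SLC25A10 are not carriers of the malate-aspartate shuttle itself. The oxoglutarate-malate carrier SLC25A11, which is, was not called, at −0.49 (edgeR FDR 0.1004), and the paralog GPD1L at 0.11 (FDR 0.465). SLC25A18, MDH1B and GOT1L1 were not tested. Among the carriers tested only SLC25A12 was well expressed, with medians of 117 CPM in Duroc and 93.3 CPM in Landrace. The medians were 3.60 and 2.60 CPM for SLC25A22, 3.33 and 2.09 for SLC25A13, 3.38 and 2.86 for SLC25A10 and 1.52 and 1.22 for SLC25A11.

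Among enzymes of NADH and pyruvate metabolism, cytosolic and mitochondrial, 2 of 10 tested were higher and 3 lower in Landrace, with a list median of 0.09. The 3 called lower, NNT, GLUD1 and ME3, are mitochondrial. The other mitochondrial members were not called, with LDHD at 0.22, PC at 0.10, MPC2 at 0.08 and ME2 at −0.30. GAPDH, the glycolytic enzyme that makes the cytosolic NADH, was higher by 0.48 (SE 0.127, edgeR FDR 0.00560), and NNT, which couples mitochondrial NADH to NADPH, was lower (−0.77, SE 0.166, FDR 0.000956). LDHB and MPC1 were not tested. In the tricarboxylic acid cycle without MDH2, 1 of 16 was higher (SUCLG1, a succinyl-CoA ligase subunit, 0.21, edgeR FDR 0.0892) and 5 were lower, led by the succinate dehydrogenase subunit SDHA (−0.31, FDR 0.0194), with a list median of −0.12. The glycerol 3-phosphate list held enzymes that act on it and enzymes of the lipid synthesis steps after it. Of 8 tested, 1 was higher (the acyltransferase GPAT3, 0.62, edgeR FDR 0.0999) and 3 were lower, led by the acyltransferase GPAM (−1.18, FDR 0.000877). The list median was −0.07. GK was not tested.

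Some fibre type markers differed between the breeds, against a background of 33.1% of all genes called. Of the fast fibre markers only TNNI2, TNNT3 and ATP2A1 could be matched by symbol, since MYH1, MYH2, MYH4 and MYLPF were not named in the gene table used, and 2 of these 3 were called higher in Landrace, with ATP2A1 at 0.31 (edgeR FDR 0.180). Of 6 slow fibre markers 2 were called lower in Landrace, a share near the background, and all 6 coefficients were below 0, with a median of −0.62. The fast marker sum was 17984 to 34198 CPM (median 21940) in Duroc and 12920 to 47236 CPM (median 26672) in Landrace. The slow marker sum was 4617 to 14865 CPM (median 7057) in Duroc and 1524 to 18463 CPM (median 5971) in Landrace. Endothelium markers were lower in Landrace (3 of 3), with sums of 47.7 to 145 CPM in Duroc and 27.2 to 120.5 CPM in Landrace. The 3 skeletal muscle markers tested were higher in Landrace (ACTA1 by 0.38, edgeR FDR 0.0115, CKM by 0.24, FDR 0.0545, and TNNT3, which is also a fast marker). Of the adipocyte markers 1 of 3 tested was lower (ADIPOQ, −2.67, edgeR FDR 0.0451). PLIN4 (0.35, edgeR FDR 0.170) and FABP4 (0.25, FDR 0.576) had coefficients above 0 and were not called. Of the fibroblast markers 1 of 4 was lower (LUM, −0.75, edgeR FDR 0.0915) with all 4 coefficients below 0, and of the leukocyte markers 1 of 6 was lower. In bulk muscle, fewer cells or fibres of a type and less RNA per cell cannot be told apart, and the part of these markers in the breed differences was not tested.

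RNA integrity was the label with the widest effect on the transcriptome. With a higher RIN, GPD2 was higher, and GPD1, MDH1, GOT1 and GOT2 were lower, so 1 gene of 6 was called higher and 4 lower per unit of RIN. Over all genes 23.9% were called higher and 27.9% lower, 51.8% in all, so a call in most genes is the background here.

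GPD1 was lower by 0.40 per unit of RIN (SE 0.0905, 0.756-fold, edgeR FDR 0.000429). The 2 Landrace pigs with a RIN below 7 had 1511 and 1713 CPM of GPD1, against a Landrace median of 1099. Within batches 2, 3 and 5 the slope of GPD1 on RIN, with no other label in the fit, was −0.45, −0.89 and −0.45, and −1.52 in batch 3 without Landrace replicate 8. Batch 4 held 5 pigs and was not fitted alone. The GPD1 coefficient depended on the scaling: with library size alone, without TMM, it was −0.09 (edgeR FDR 0.341), because the median over all genes then moved from −0.01 to 0.30 per unit of RIN.

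GPD2 was the 1 gene of the 6 that rose with RIN, by 0.45 per unit (SE 0.125, 1.36-fold, edgeR FDR 0.00362). Its slopes within batches 2, 3 and 5 were 0.24, 1.35 and 0.36, and 0.96 in batch 3 without replicate 8. It was called in all 14 of 14 alternative fits, from 0.39 to 0.75 per unit.

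MDH1 was lower by 0.36 per unit (SE 0.124, edgeR FDR 0.0188), GOT2 by 0.21 (SE 0.0734, FDR 0.0174) and GOT1 by 0.27 (SE 0.130, FDR 0.0886), while MDH2 was at −0.14 (95% interval −0.29 to 0.01, FDR 0.131). Over 14 alternative fits GOT1 was called in 4, GOT2 in 10, MDH1 in 11 and MDH2 in 2 (1 in each direction), so the GOT1 call depended on the setting. Without the 2 pigs with a RIN below 7, only GPD1 and GPD2 were still called, with MDH1 at −0.25, GOT1 at −0.24 and GOT2 at −0.15. Without Landrace replicate 8, GOT1 was at −0.19 and was not called (edgeR FDR 0.180), MDH2 was at −0.09, and MDH1 (−0.28) and GOT2 (−0.16) were still called. Slopes of MDH1, MDH2, GOT1 and GOT2 were −0.32, −0.16, −0.23 and −0.25 in batch 2 and −0.62, −0.27, −0.56 and −0.47 in batch 3. Without replicate 8 the batch 3 slopes were −0.15, −0.13, 0.01 and −0.26, and in batch 5 all 4 lay between −0.06 and 0.07. With library size alone MDH1 was at −0.04 (edgeR FDR 0.818), and GOT1, GOT2 and MDH2 took the other sign, at 0.04, 0.10 and 0.17 per unit, all 4 below the median of 0.30 over all genes in that fit.

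**Figure D2:**
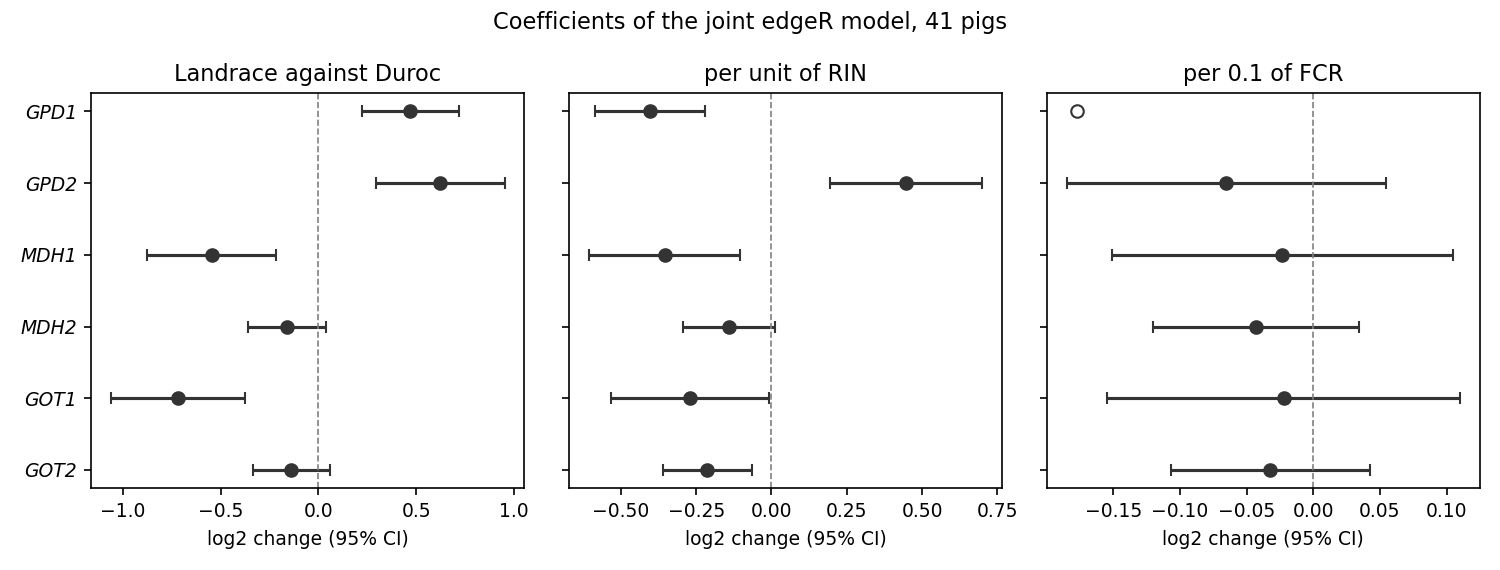
Log2 coefficients of the 6 genes in the joint edgeR model of 41 pigs (horizontal axes) for Landrace against Duroc, per unit of RIN and per 0.1 of FCR, with 95% intervals as bars. GPD1 against FCR (open point) is a description and has no interval. GPD1 and GPD2 lie on the same side for breed (0.47 and 0.62) and on opposite sides for RIN (−0.40 and 0.45).

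In the other lists, beside 23.9% of all genes higher and 27.9% lower, 0 of 6 carriers and paralogs were higher and 3 were lower with RIN, led by SLC25A22 (−0.39, edgeR FDR 0.0330). Of the NADH and pyruvate enzymes 5 were higher, led by LDHA, which makes lactate (0.30, edgeR FDR 0.00685), and 3 were lower, led by the pyruvate carrier subunit MPC2 (−0.28, FDR 0.00235). Of the tricarboxylic acid cycle genes 2 were higher, led by IDH3A (0.53, edgeR FDR 0.00123), and 9 were lower, led by SDHA (−0.50, FDR 1.41e-06). Of the glycerol 3-phosphate list 1 was higher (GPAM, 0.58, edgeR FDR 0.0249) and 2 were lower, led by the phosphatase PGP (−0.30, FDR 0.0143). Fibre markers also moved with RIN: 5 of 6 slow markers were lower, 2 of 3 fast markers were lower, and the calcium pump ATP2A1 was higher (0.66 per unit). Of 4 fibroblast markers 2 were higher (LUM, 1.06, edgeR FDR 0.000717, and COL3A1, 0.93, FDR 0.00868) and 0 lower. Of 6 leukocyte markers 1 was lower (CD3E, −0.67, edgeR FDR 0.0758), and 0 of 3 adipocyte and 0 of 3 endothelium markers were called.

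Age gave no call for the 6 genes (0 of 6, against 1.76% of all genes). GPD2 had the smallest p, at −0.34 per 10 days (SE 0.130, unadjusted p = 0.0130, edgeR FDR 0.189), and it was the 1 gene of the 6 with an unadjusted p below 0.05, against 16% of all genes. DESeq2 and limma also called 0 of 6. With batch entered as a number, GPD2 (−0.38, edgeR FDR 0.0685) and GOT1 (0.36, FDR 0.0973) were called.

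The study's question was whether muscle expression follows feed efficiency. GPD1 had a coefficient below 0, that is, less transcript at a higher FCR, of −0.18 per 0.1 of FCR in the joint model (SE 0.0458), which is a 0.885-fold change. It was −0.17 (SE 0.0804) in Duroc alone and −0.15 (SE 0.0662) in Landrace alone. The difference between the breeds was 0.01 (SE 0.0932). GPD1 was picked out of the genome for this relation, so these values are no independent evidence of it.

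In Duroc the 7 pigs at or below the median FCR of 1.94 had 695 to 1530 CPM of GPD1 (median 1075), and the 6 pigs above it had 739.5 to 878 CPM (median 795), so the ranges overlapped. In Landrace the 15 pigs at or below the median FCR of 2.1 had 861 to 1670 CPM (median 1143), and the 13 pigs above it had 659 to 1719 CPM (median 1017), so the ranges overlapped widely. Slopes within batches were fitted over both breeds together, with no breed or other term. They were −0.04 in batch 2, 0.02 in batch 3 and −0.13 per 0.1 in batch 5. Without Landrace replicate 8 the batch 3 slope was 0.38, over 2 Duroc and 6 Landrace pigs. Landrace had both a higher median FCR and more GPD1, so these slopes mix breed with FCR and are not comparable with the fitted value. The fitted coefficient was below 0 in 14 of 14 alternatives of the joint model (−0.22 to −0.12), in 20 of 20 in Duroc (−0.25 to −0.12) and in 9 of 9 in Landrace (−0.18 to −0.10). The Landrace value closest to 0 was the one without replicate 8, at −0.10 (SE 0.0577). These refits reuse the pigs that GPD1 was chosen on, so their shared sign is no independent evidence.

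None of the other 5 genes was called against FCR. In the joint model GPD2 was at −0.07 per 0.1 of FCR (95% interval −0.19 to 0.05), MDH1 at −0.02 (−0.15 to 0.10), MDH2 at −0.04 (−0.12 to 0.03), GOT1 at −0.02 (−0.15 to 0.11) and GOT2 at −0.03 (−0.11 to 0.04), with edgeR FDR from 0.742 to 0.930. Without Landrace replicate 8 they were −0.04, −0.07, −0.06, −0.08 and −0.05 in the same order, with edgeR FDR from 0.810 to 0.902. Of all genes 0% were called in this model. At an unadjusted p below 0.05 edgeR gave 0 of the 5 genes and 8.68% of all genes, limma called 0 genes at FDR 0.1, and DESeq2 called 5, none of them among the 5. All 5 coefficients were below 0, as were 48.5% of all genes, and with library size alone they ran from −0.01 to 0.04, all below a median over all genes that moved from 0.00 to 0.06.

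Within the breeds the 5 genes were not called either, and neither was any other gene (0% in Duroc and 0% in Landrace with edgeR, against 5.37% and 5.5% at an unadjusted p below 0.05). In Duroc they ran from −0.08 (GOT1, 95% interval −0.28 to 0.12) to −0.01 (GOT2), with edgeR FDR from 0.831 to 0.974. Only 5 residual degrees of freedom remained in that model. Duroc replicate 2, the single pig of batch 1, was fitted exactly by its batch term here and in the joint model. Without Duroc replicate 11, the most efficient pig at an FCR of 1.83, all 5 turned positive, from 0.06 (MDH2) to 0.17 (GPD2 and MDH1). In Landrace GPD2 had the smallest p, at −0.14 (95% interval −0.30 to 0.02, unadjusted p = 0.0877, edgeR FDR 0.956). Without replicate 8 it was −0.10 (unadjusted p = 0.203), and GOT2 then had the smallest p, at −0.09 (unadjusted p = 0.0645, edgeR FDR 0.998). MDH1 was at 0.00 and GOT1 at 0.03, and both turned negative without replicate 8, at −0.07 and −0.05.

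A breed difference in the FCR coefficient was not found for any of the 5 genes (edgeR FDR 0.936 to 0.986, 0% of all genes called and 5.22% at an unadjusted p below 0.05). The estimate for GOT1 was the largest, at 0.19 (95% interval −0.07 to 0.45), and it was 0.07 without replicate 8. In the 4 related gene lists, 0 genes were called against FCR in any of these models.

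**Figure D3:**
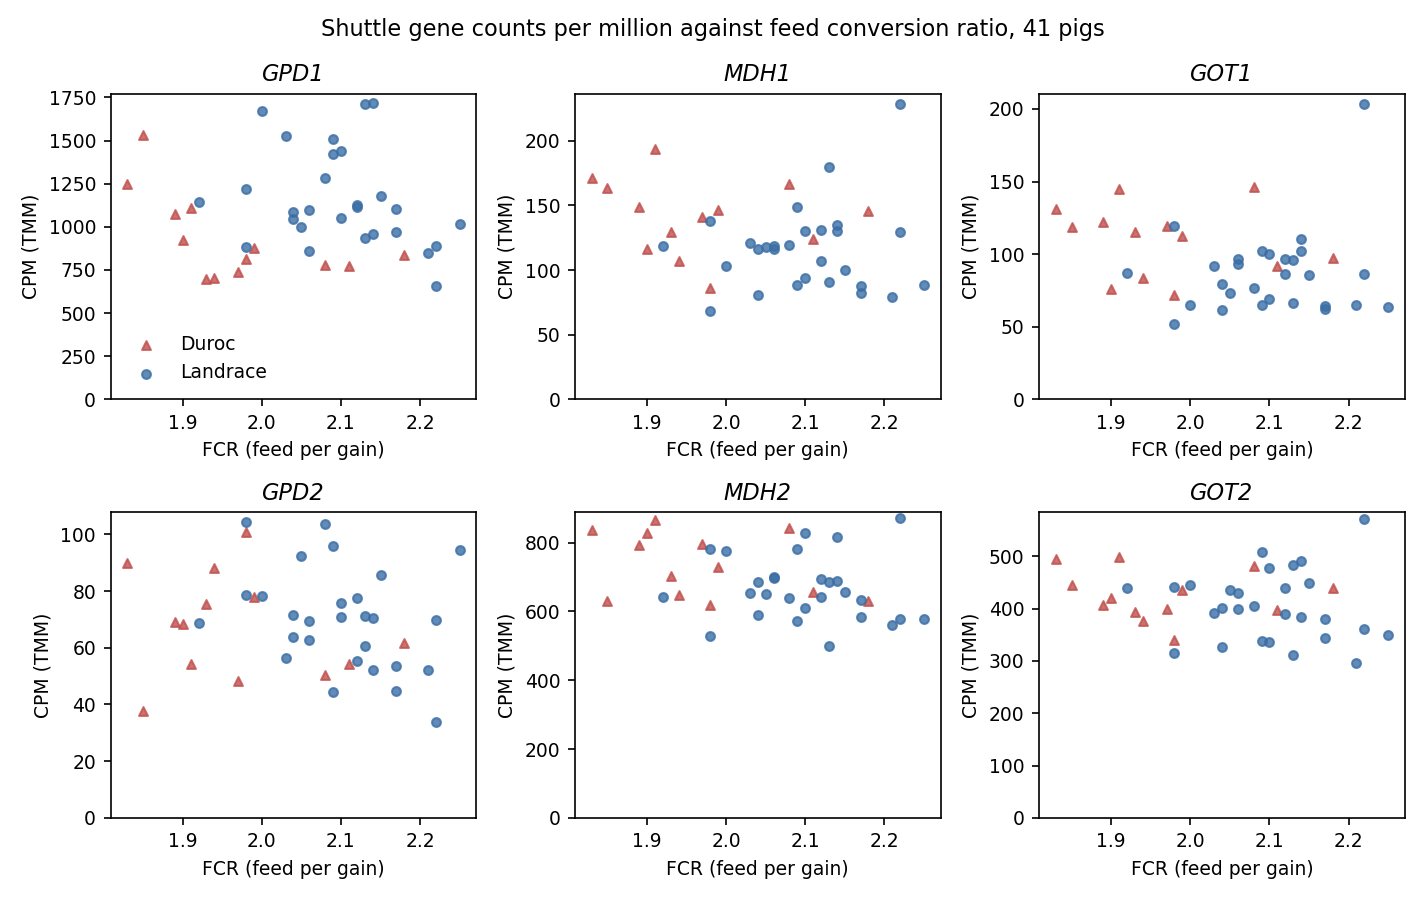
TMM-scaled CPM of the 6 genes (vertical axes, from 0) against FCR in feed per gain (horizontal axes) for 13 Duroc (triangles) and 28 Landrace (circles) pigs. In Duroc, GPD1 is 695 to 1530 CPM in the 7 pigs at or below the median FCR and 739.5 to 878 CPM in the 6 above it, and the Landrace pig at an FCR of 2.22 with 203 CPM of GOT1 is replicate 8.

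Whether the 6 genes vary together was read from the 15 pairs over the 41 pigs, on log2 CPM with permutation tests of 100000 resamples and Benjamini-Hochberg adjustment over the 15 pairs. The malate-aspartate genes formed 1 tight group. All 6 pairs among MDH1, MDH2, GOT1 and GOT2 were positive, with Pearson r from 0.745 to 0.916 (each permutation p = 1e-05, the smallest that the permutations can give, adjusted p = 2.5e-05) and Spearman rho from 0.687 to 0.901.

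The closest pair was MDH1 and GOT1, the 2 cytosolic enzymes, with r = 0.916 and rho = 0.901. It was 0.887 without the 2 pigs farthest from the MDH1 median, 0.900 without Landrace replicate 8, and 0.914 after adjustment for breed, RIN, age and batch. It held in Duroc (0.910) and Landrace (0.898) and in batches 2, 3 and 5 (0.957, 0.967 and 0.844). Pairs with MDH2 were looser in batch 5, at 0.206 with MDH1 and 0.254 with GOT1, against 0.892 and 0.917 in batch 2.

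GPD1 was more loosely related to that group, and the relation differed between the pooled pigs and each breed. Over all 41 pigs its r was 0.06 with MDH1, 0.11 with MDH2, −0.12 with GOT1, 0.28 with GOT2 and 0.03 with GPD2, the partner in its own shuttle, and none passed the adjusted threshold by r. By rank, GPD1 and GOT2 did pass (rho = 0.374, permutation p = 0.0166, adjusted p = 0.0355), and without replicate 8 they passed by r as well (0.432, permutation p = 0.00530, adjusted p = 0.0114), while GPD1 was at 0.20 with MDH1, 0.21 with MDH2 and 0.02 with GOT1, none of which passed. After adjustment for breed, RIN, age and batch this pair was at 0.09 (permutation p = 0.556). These values turned on few pigs: without the 2 pigs farthest from the GPD1 median the pair did not pass (r = 0.185, rho = 0.2998, adjusted permutation p = 0.387 and 0.138), and the adjusted r of GPD1 was then 0.280 with GOT2, 0.301 with MDH1, 0.295 with MDH2 and 0.277 with GOT1. Within Duroc, GPD1 passed with MDH1 (r = 0.555, rho = 0.626, adjusted permutation p = 0.0943 and 0.0622) and with GOT2 (r = 0.543, rho = 0.709, adjusted permutation p = 0.0943 and 0.0278). Within Landrace it passed by rank with GOT2 (rho = 0.540, adjusted permutation p = 0.00744), MDH2 (rho = 0.3996, adjusted permutation p = 0.0665) and MDH1 (rho = 0.362, adjusted permutation p = 0.0984), and by r with none (0.352, 0.339 and 0.141). With GOT1 it passed in neither breed (r = 0.367 in Duroc and −0.04 in Landrace). The sign over all pigs depended on the scaling: with library size alone, r was −0.25 with MDH1, −0.29 with MDH2, −0.30 with GOT1 and −0.25 with GOT2 (rho = −0.14), and none passed.

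GPD2 ran against the malate-aspartate genes before adjustment, with r of −0.39 with MDH1, −0.45 with GOT1 and −0.31 with GOT2 (adjusted permutation p = 0.0211, 0.00619 and 0.0796). By rank only the pair with GOT1 passed (rho = −0.35, adjusted permutation p = 0.0504). After adjustment for breed, RIN, age and batch none of the 3 passed, at −0.15, −0.27 and −0.11. Within breeds, GPD2 passed by r with GOT1 in Landrace (−0.48, adjusted permutation p = 0.0237) and with MDH1 in Duroc (−0.55, adjusted permutation p = 0.0943), and by rank with none. Without the 2 pigs farthest from the GPD2 median, and unadjusted, the 3 were −0.22, −0.29 and −0.17, so the negative relation rested in part on those pigs. Without Landrace replicate 8 they were −0.28, −0.33 and −0.19, and only the pair with GOT1 passed (adjusted permutation p = 0.0688). With library size alone they were −0.13, −0.10 and 0.05, and none passed.

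**Figure D4:**
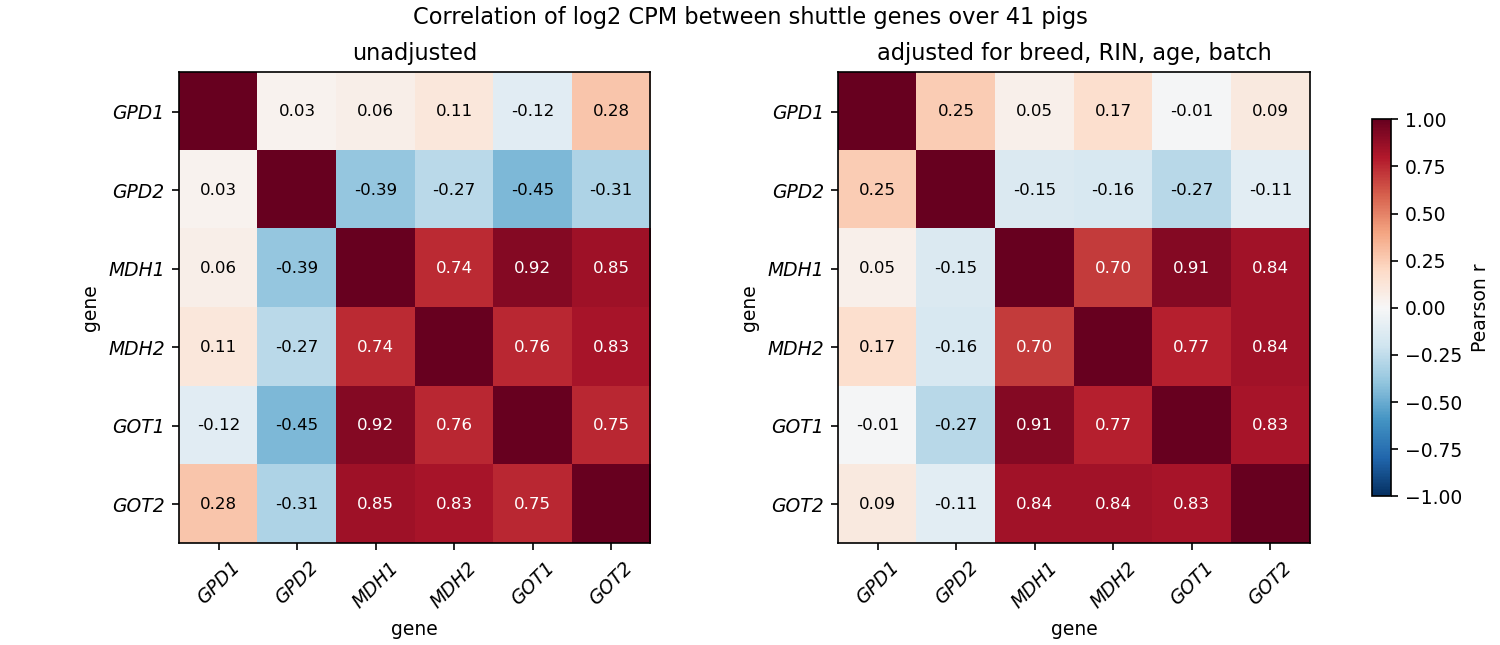
Pearson r of log2 CPM between the 6 genes over 41 pigs, unadjusted (left) and after adjustment for breed, RIN, age and batch (right), with colour from −1 (blue) to 1 (red). MDH1, MDH2, GOT1 and GOT2 form a block of 0.70 to 0.92 in both panels, and the pooled r of GPD1 and GPD2 with these 4 genes runs from −0.45 to 0.28.

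The genes whose pattern was most like each member, by r after adjustment for breed, RIN, age and batch over the 41 pigs and 9828 genes with a symbol, differed between the shuttles. These values are descriptions. For GPD1 they were MYOZ3, a Z-disc protein of fast fibres (0.893), the GTPase HRAS (0.865), the adenylate kinase AK1 (0.860), the fast troponin TNNT3 (0.835) and PTGR3 (0.822). For MDH1 they were GOT1 (0.914), the complex III subunit UQCRFS1 (0.914) and the ATP synthase subunit ATP5F1A (0.890). For GOT1 they were MDH1, UQCRFS1 (0.910) and ATP5F1A (0.892). For MDH2 they included the mitochondrial stress protein DELE1 (0.920) and the ATP synthase subunit ATP5F1D (0.869), and for GOT2 UQCRFS1 (0.848), MDH2 (0.839) and MDH1 (0.838). For GPD2 the closest genes were farther away, with IDI1, an enzyme of isoprenoid synthesis, at 0.603, the B cell adaptor BLNK at 0.591 and the membrane sorting protein IST1 at 0.588. Before adjustment IDI1 and BLNK had an r of 0.263 and 0.256 with GPD2, and IST1 had 0.692.

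The shuttle genes also followed the summed fibre markers, in 30 relations of the 6 genes with 5 marker lists. Both sides of each relation were scaled by TMM, and no values with library size alone were computed. GPD1 rose with the fast marker sum (r = 0.869, rho = 0.842, each permutation p = 1e-05, the smallest possible, adjusted p = 6e-05 for r and 0.00015 for rho). It was 0.850 without the 2 pigs farthest from the median marker sum, 0.864 without replicate 8, 0.805 after adjustment, 0.899 in Duroc and 0.849 in Landrace, and 0.817, 0.943 and 0.907 in batches 2, 3 and 5. TNNT3 is part of this sum and was also among the 5 genes closest to GPD1. With the slow marker sum GPD1 did not pass (r = 0.06, rho = 0.04, permutation p = 0.734 and 0.822), and its r was 0.403 in Duroc and 0.09 in Landrace. The sign differed between batches, at 0.20, −0.67 and 0.39 in batches 2, 3 and 5.

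MDH1 rose with the slow marker sum (r = 0.807, rho = 0.714, each permutation p = 1e-05, adjusted p = 6e-05 and 0.00015). It was 0.737 without the 2 pigs farthest from the median sum, 0.773 without replicate 8, 0.745 after adjustment and 0.895, 0.832 and 0.574 in batches 2, 3 and 5. GOT1 (r = 0.706, rho = 0.582), GOT2 (0.687 and 0.571) and MDH2 (0.655 and 0.572) went the same way, with adjusted permutation p of 6e-05 for each r. Their r without the 2 farthest pigs was 0.589, 0.600 and 0.574, and in batch 5 it was 0.325, 0.450 and 0.361. None of the 4 passed with the fast marker sum by rho. GOT1 passed by r alone (−0.35, adjusted permutation p = 0.0593), and was at −0.18 without replicate 8.

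GPD2 was negative with the slow marker sum (r = −0.40, adjusted permutation p = 0.0326), but not by rank (rho = −0.23, adjusted p = 0.235), and it was at −0.17 without the 2 farthest pigs. GPD1 was also negative with the endothelium sum (r = −0.50, rho = −0.50, adjusted permutation p = 0.00520 and 0.00364), and after adjustment for breed, RIN, age and batch at −0.33, passing by r (adjusted permutation p = 0.0858) but not by rank (rho = −0.29, adjusted p = 0.171). Its r with that sum was −0.06, −0.89 and −0.50 in batches 2, 3 and 5. It was negative with the fibroblast sum as well (r = −0.48, rho = −0.55, adjusted p = 0.00681 and 0.00180). After adjustment for breed, RIN, age and batch, the fibroblast sum was negative with GPD1, MDH1, MDH2, GOT1 and GOT2 (r from −0.43 to −0.52). GPD1 was at 0.39 with the adipocyte sum (rho = 0.38, adjusted permutation p = 0.0326 and 0.0419), and at 0.20 after adjustment (permutation p = 0.218). Most of that sum was PLIN4. GOT1 was positive with the endothelium sum (r = 0.319, rho = 0.330, adjusted permutation p = 0.0885 and 0.0844), and at −0.04 after adjustment. GPD2 passed with the fast marker sum by r after adjustment alone (0.365, adjusted permutation p = 0.0489, rho = 0.240). The fast markers had coefficients below 0 against FCR in the joint model, as GPD1 had, at −0.13 per 0.1 of FCR for TNNI2 (SE 0.0535, unadjusted p = 0.0241, edgeR FDR 0.535), −0.11 for TNNT3 (SE 0.0488, unadjusted p = 0.0301, FDR 0.550) and −0.02 for ATP2A1 (FDR 0.950). The fast marker sum followed GPD1, which was chosen for its relation with FCR, so these fast marker values are not independent of that choice. Of the 6 slow markers 0 were called against FCR, and 5 coefficients were above 0, with a median of 0.05. In Duroc 5 of the 6 were below 0 (median −0.12) and in Landrace 5 were above 0 (median 0.11). No marker of the other lists was called either. Of the adipocyte markers 3 were tested, and ADIPOQ was at 1.09 per 0.1 of FCR (SE 0.3998, unadjusted p = 0.0101, edgeR FDR 0.529) and at 1.64 in Landrace (unadjusted p = 0.00238, FDR 0.794). PLIN4 and FABP4 were at −0.01 and 0.09 in both breeds and at 0.04 and 0.13 in Landrace. All 4 fibroblast coefficients were above 0 (median 0.12), 5 of 6 leukocyte coefficients were below 0 (median −0.08), and 2 of 3 endothelium coefficients were above 0 (median 0.01). The leukocyte markers went opposite ways in the breeds, with 6 of 6 above 0 in Duroc (median 0.38) and 5 of 6 below 0 in Landrace (median −0.22). The part of fibre type or other cells in the relation of GPD1 with FCR was not tested.

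**Figure D5:**
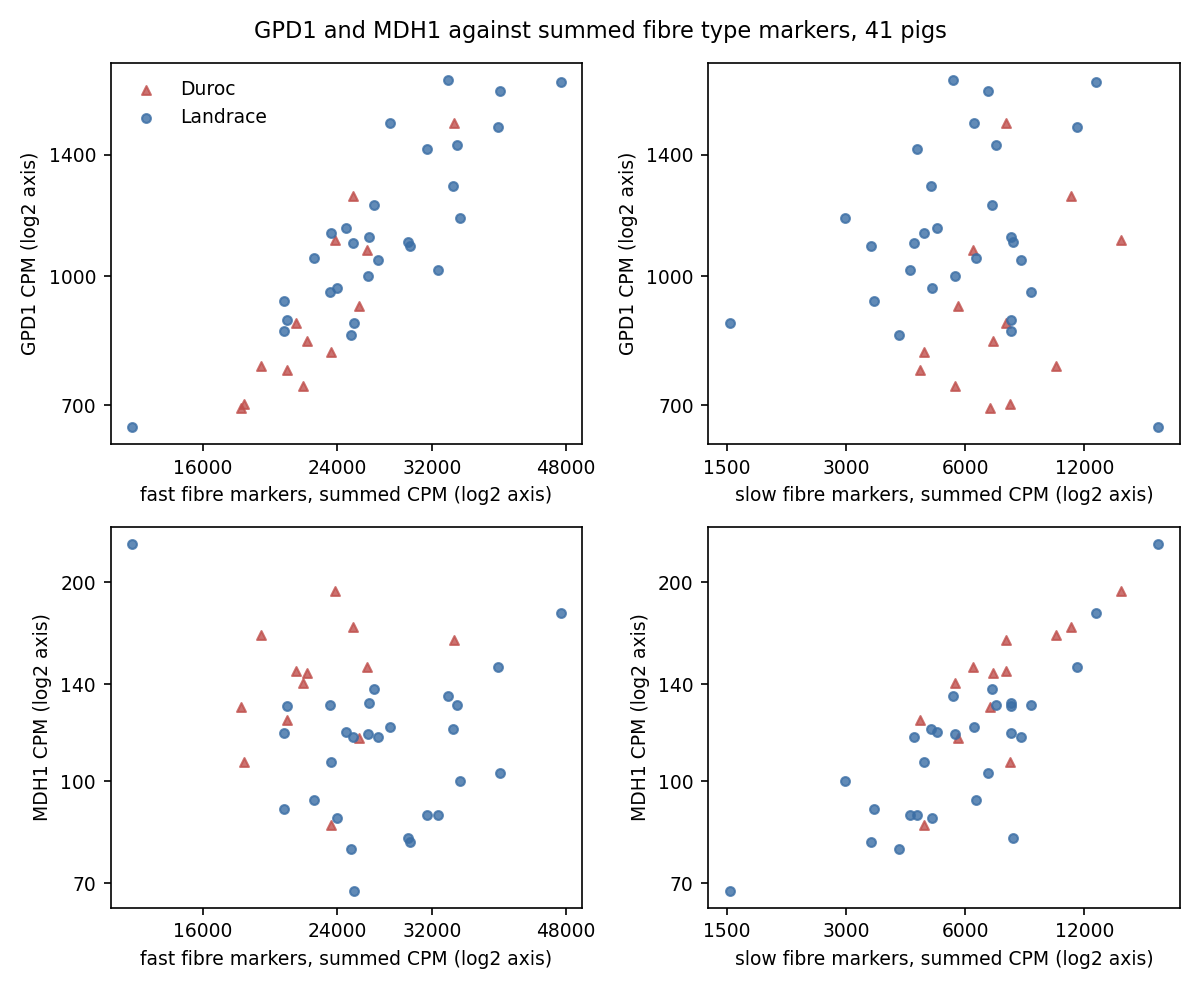
GPD1 (top) and MDH1 (bottom) in CPM against the summed CPM of 3 fast fibre markers (left) and 6 slow fibre markers (right), all on log2 axes, for 13 Duroc (triangles) and 28 Landrace (circles) pigs. GPD1 rises with the fast sum (r = 0.869) and MDH1 with the slow sum (r = 0.807), and replicate 8 of Landrace is the pig at a fast sum of 12920 and a slow sum of 18463 CPM.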

How the data were processed

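The authors trimmed 100-base unstranded paired reads with Trimmomatic 0.39 and aligned them with STAR 2.7.1a to Sscrofa11.1 with Ensembl 96, and deposited raw counts per gene for each pig. The unstranded count column was used, and rows naming no gene (19.1% to 30.1% of read pairs) were left out. Genes were named through a table of gene IDs and symbols. Counts were fitted in edgeR 4.0.16 (quasi-likelihood, TMM, filterByExpr with a minimum count of 10) with FCR, RIN, age, breed and the 5 batches as terms, within each breed without the breed term, and with an FCR by breed term. TMM factors were 0.650 to 1.24. P-values were adjusted over all genes tested, with a threshold of 0.1. The SE is the coefficient over the root of its F value. CPM was on a log2 scale with a prior count of 2 for correlations. The 6 genes were all named, with the 5 (GPD1) or 3 closest genes, and from each list the smallest p in each direction. For MDH2, 1 of the closest genes is not reported here. DESeq2 1.42.0 and limma 3.58.1 were alternatives. Members and lists were chosen with earlier results of these data known. R 4.3.3 and Python 3.11.15 were used.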

Additional observations from a re-analysis of the deposited data

How the results depend on the processing

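No paired analysis was possible because the pigs of the 2 breeds are different animals, and their replicate numbers, given in accession order, only name them. Where no cause is given for a change below, the cause was not tested. For breed, 4 of the 6 genes were called, and 2 without batch 2, where MDH2 was at 0.0537. For RIN, 5 were called, against 2 with library size only, 3 with no filter on low counts, 2 without the 2 pigs with RIN below 7, 2 without batch 2, and 4 to 6 in the other fits. GOT1 was called in 4 of the 14 and MDH2 in 2. For age, 0 were called, and 2 with batch as a number. With library size only, the RIN coefficient was 0.166 for MDH2, 0.0425 for GOT1 and 0.0961 for GOT2, and the age coefficient was 0.0616 for GPD1, which was at 0.0181 with batch as a number and 0.0179 without Landrace replicate 8.

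For FCR in both breeds, library size only gave 0.0370 for MDH1, 0.0122 for MDH2, 0.0378 for GOT1 and 0.0236 for GOT2, all below the median of 0.06 over all genes in that fit (0.00 with TMM). Leaving out age gave 0.00169 for MDH1 and 0.0183 for GOT1, and leaving out batch 4 gave 0.00854 and 0.00882. In Duroc, MDH1 was 0.0102 and GOT2 0.0375 with library size only and 0.00840 and 0.0140 with batch as a number. Leaving out 1 Duroc pig at a time gave −0.255 to 0.174 for GPD2, −0.123 to 0.170 for MDH1, −0.127 to 0.0572 for MDH2, −0.159 to 0.131 for GOT1 and −0.0596 to 0.133 for GOT2, each highest without replicate 11, and GOT2 was 0.00274 without replicate 5. In Landrace, MDH1 was −0.000894 with DESeq2, −0.000892 with RLE size factors, −0.0237 with batch as a number and −0.0702 without replicate 8. GOT1 was −0.00849 with batch as a number and −0.0476 without replicate 8, and MDH2 0.000492 with library size only. The FCR by breed term of MDH2 was −0.0225 without replicate 8.

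Over the 15 pairs, 9 correlations passed, against 6 after adjustment, 6 with library size only, 6 without the 2 farthest pigs, 8 without Landrace replicate 8, 9 in Duroc and 7 in Landrace. Over all genes, breed calls numbered 3692, 1877 without batch 2 and 1608 without batch 5, where GPD1 was at 0.46 (edgeR FDR 0.119). RIN calls numbered 5775, and 3825 without batch 5. Age calls numbered 196, 545 with DESeq2, 45 with library size only, 99 with no filter and 814 with batch as a number. FCR calls numbered 0 in each main edgeR model, and 5, 10 and 4 with DESeq2 in both breeds, Duroc and Landrace. With library size only, the median breed difference over all genes was −0.18, against 0.00 with TMM, and MDH2 and GOT2 were then called (−0.34 and −0.32). The fits without replicate 8 and with breed and batch alone were added after the data were seen. With 13 pigs over 5 batches, the Duroc intervals stay wide.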
